A study of Mus musculus with 18 samples.

Results

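Untreated pancreatic islets of ZnT8 knockout (KO) and wild type (WT) mice were compared, gene by gene, in 6 of the 18 RNA-seq libraries of the study. The KO islets carried the genotype ZNT8 -/- and the WT islets ZNT8 +/+, with 3 libraries each, and both came from 17-week-old male mice of the strain NOD.CB17-Prkdcscid/NCrCrl. KO and WT mice therefore share the scid background, which leaves them without mature T and B lymphocytes. Islets were freed by enzyme digestion and a density gradient, rested overnight and then kept 24 h in medium without cytokines. The other 12 libraries were heterozygous islets without cytokines and islets of all 3 genotypes given cytokines (TNF-α at 100 pg/ml, IL-1β at 150 pg/ml and IFN-γ at 10 pg/ml) for 24 h. They shared in the estimate of the spread and are cited only beside KO and WT values. The labels give neither the deleted part of the gene nor whether the 3 libraries of a group came from separate mice, and the tests therefore weigh differences against a spread between libraries that may be partly technical. All 17590 genes that passed a low-count filter, of 55536 in the deposited table, were tested, and islet genes were told apart from exocrine, vascular, stromal and immune genes by lists.

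ZnT8, the product of Slc30a8, is the zinc transporter of the insulin granule: it moves zinc from the cytosol into the granule, where zinc packs insulin into crystals. Metallothioneins bind zinc in the cytosol, and their genes are switched on by the zinc-sensing factor MTF1. Islets lie within the exocrine pancreas, whose acinar cells make digestive enzymes and whose duct cells carry them away, and they are threaded by a dense net of fenestrated capillaries, so that isolated islets carry varying amounts of these neighbours.

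The 6 libraries held 24616552 to 29651472 reads assigned to genes. Libraries of a group differed from each other beyond counting noise, with a chi-square per degree of freedom of 7.59 to 27.6 over the 6 pairs, and none was a copy of another. In a principal component analysis of the 6 libraries the first component held 49.6% of the variance and set the KO libraries (scores -28.8, -19.8 and -1.09) apart from the WT libraries (21.3, 16.9 and 11.4). The second held 28.5% and set KO replicate 3 (-31.2) apart from the other libraries, which scored 3.46 to 9.48. Levels below are in CPM, the usual per-million read counts, after scaling of the libraries, and differences are log2 fold changes of KO over WT ± SE from edgeR's quasi-likelihood test, called where the Benjamini-Hochberg adjusted p over all genes tested was under 0.05.

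In KO islets 436 genes were lower and 99 were higher than in WT islets. These 535 genes are 3.04% of the genes tested, with 2.48% lower and 0.563% higher. The median log2 fold change was -0.66 among the lower genes and 0.48 among the higher genes, and 154 lower and 10 higher genes differed by at least 2-fold. Protein-coding genes made up 513 of them. In 534 of the 535 the KO and WT libraries did not overlap, which also held for 25.7% of all genes tested. An unadjusted p under 0.05 was found for 3254 genes, or 18.5% of genes tested, the share to set beside such counts in the lists below. The median log2 fold change over all genes tested was 0.0031. The count moved with single libraries: it was 149, 209 and 398 without KO replicates 1, 2 and 3, and 139, 304 and 261 without WT replicates 1, 2 and 3. Of the 74 called genes that the naming rule picked, 26 kept an adjusted p under 0.05 whichever single library was left out.

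The called genes were spread unevenly over cell types. Of 57 exocrine genes tested (acinar and duct lists), 39 were lower and none was higher, which is 68.4%, with a median log2 fold change of -2.03. Of 49 vascular genes (endothelial and angiogenic lists), 7 were lower, or 14.3%, with a median of -0.63. These were 5 of 30 endothelial genes and 2 of 20 angiogenic genes, the latter a list of signalling genes and not of cell type markers. None of 52 stromal genes passed, and 2 of 26 immune cell genes were higher. Of 111 islet genes 5 were higher and 2 were lower, with a median of 0.19. Among 125 genes of inflammation and epithelial injury 22 were lower, or 17.6%, and among 146 genes of mitochondria and metabolism 2 were higher and 1 was lower, or 2.05%. Of the 16900 genes in no list, 352 were lower and 86 higher, or 2.59%. Because the RNA is of whole islets, fewer cells of a type and less RNA per cell cannot be told apart.

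**Figure D1:**
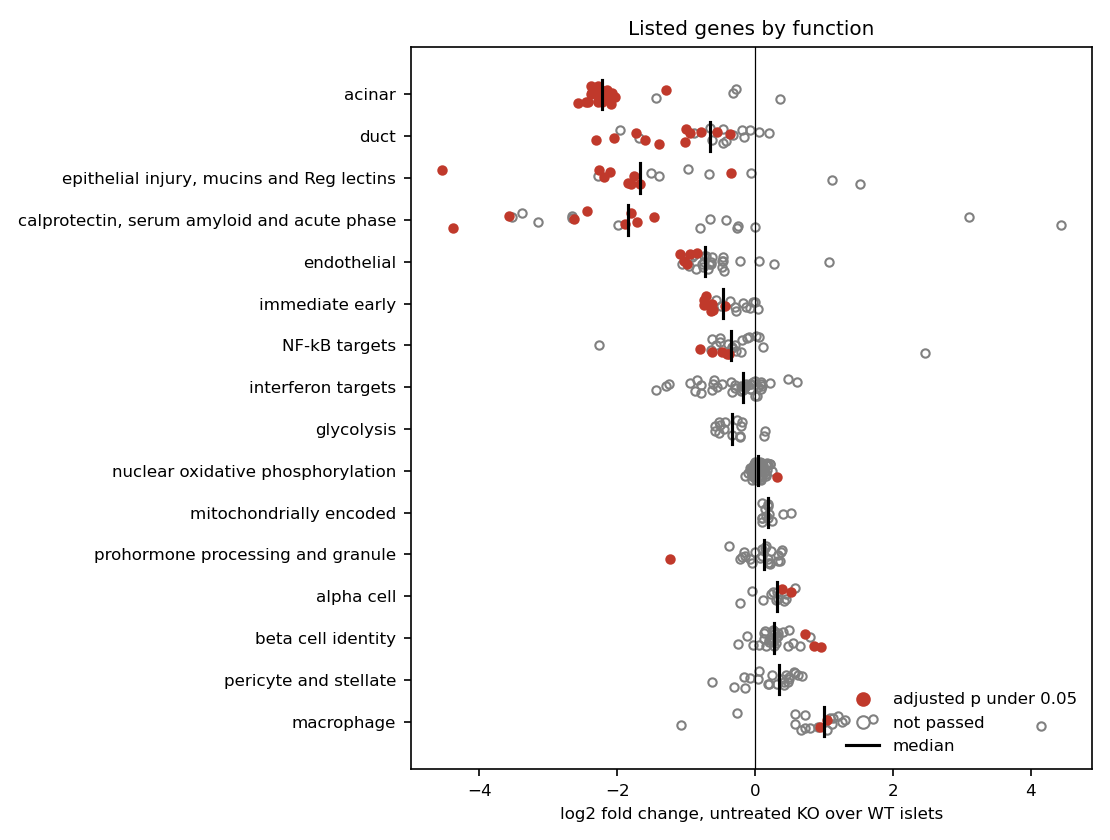
Log2 fold change of untreated KO over WT islets (x axis) for the tested members of 16 gene lists (y axis). Each circle is a gene, filled where the adjusted p was under 0.05, and the bar is the list's median; acinar genes gather near their median of -2.22 while genes of nuclear oxidative phosphorylation gather near 0.04.

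Slc30a8 (ENSMUSG00000022315, GRCm38 chromosome 15, 52295553 to 52335798, plus strand), the targeted gene, was lower in KO islets but was not absent. It had 47.9, 55.9 and 44.0 CPM in KO islets, against 98.8, 123 and 125 CPM in WT islets. Every KO library lay below every WT library, and KO islets averaged 49.2 ± 6.07 CPM, or 42.6% of the 116 ± 14.5 CPM in WT islets (SD, n = 3 each; log2 fold change -1.23 ± 0.18, adjusted p = 0.00269). Heterozygous islets had 126, 95.7 and 111 CPM. The count covers the whole gene, so reads from exons outside the deleted part enter it and the remaining level says nothing of the protein. Per kb of exon Slc30a8 had the highest level of the tested Slc30 and Slc39 genes in WT islets, at 58.6 ± 7.37 CPM per kb. In KO islets it had 24.98 ± 3.08 CPM per kb, and Slc39a1, which encodes a zinc importer of the cell surface, had 29.4 ± 3.57 CPM per kb.

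Metallothionein genes moved in both directions. Mt1 had 272, 241 and 239 CPM in KO islets, against 588, 503 and 509 CPM in WT islets (log2 fold change -1.09 ± 0.17, adjusted p = 0.0029). Mt2 had 177, 163 and 160 CPM in KO islets, against 418, 349 and 330 CPM in WT islets (-1.13 ± 0.15, adjusted p = 0.00161). Both fell in KO islets below the lowest WT library, and heterozygous islets lay nearer to KO islets, with 305, 271 and 310 CPM of Mt1 and 206, 194 and 237 CPM of Mt2. Mt3, the form best known from brain, rose: it had 12.2, 9.78 and 9.60 CPM in KO islets, against 4.54, 4.69 and 5.94 CPM in WT islets (1.06 ± 0.17, adjusted p = 0.00438). All 3 genes kept their call without any single library. Mtf1 itself had 47.1, 44.6 and 40.6 CPM in KO islets and 44.5, 43.4 and 42.5 CPM in WT islets (0.02 ± 0.06, adjusted p = 0.905). With the acinar level as a covariate the log2 fold changes were -0.29 ± 0.29 for Mt1, -0.47 ± 0.27 for Mt2 and 0.72 ± 0.39 for Mt3. In that fit none of the genes tested passed (807 with an unadjusted p under 0.05), and the median SE over all genes was 0.287, against 0.128 without the covariate. Slc30a8 had -1.34 in it.

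The promoters of these 3 genes, which lie together on chromosome 8, are shown because MTF1 acts through short metal response elements in metallothionein promoters. They are RefSeq sequences of build GRCm38.p6, plus strand, from 250 bases before to 50 bases after the transcription start: chr8:94178839-94179138 for Mt1, chr8:94172368-94172667 for Mt2 and chr8:94152357-94152656 for Mt3. Capitals mark matches to the element core, TGCACNC or TGCGCNC, on either strand.
Mt1: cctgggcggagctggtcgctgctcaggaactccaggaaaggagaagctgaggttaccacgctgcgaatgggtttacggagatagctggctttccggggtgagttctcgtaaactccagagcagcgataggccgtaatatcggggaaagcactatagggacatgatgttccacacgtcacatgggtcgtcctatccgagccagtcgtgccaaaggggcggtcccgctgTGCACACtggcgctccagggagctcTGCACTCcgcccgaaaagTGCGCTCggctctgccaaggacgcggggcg
Mt2: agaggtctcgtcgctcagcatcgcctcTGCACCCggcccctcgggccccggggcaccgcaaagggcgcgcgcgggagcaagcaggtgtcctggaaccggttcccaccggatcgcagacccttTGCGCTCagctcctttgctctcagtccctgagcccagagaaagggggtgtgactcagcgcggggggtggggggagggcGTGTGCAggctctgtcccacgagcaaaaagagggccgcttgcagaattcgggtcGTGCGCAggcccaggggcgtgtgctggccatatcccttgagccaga
Mt3: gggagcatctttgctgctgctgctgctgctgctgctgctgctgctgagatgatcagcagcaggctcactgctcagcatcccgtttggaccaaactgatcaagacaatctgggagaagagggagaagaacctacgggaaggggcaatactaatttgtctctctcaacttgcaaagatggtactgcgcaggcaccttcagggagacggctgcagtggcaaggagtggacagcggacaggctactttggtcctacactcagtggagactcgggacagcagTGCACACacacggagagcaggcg
The core was found 3 times in the Mt1 window, 4 times in the Mt2 window and 1 time in the Mt3 window. Of 32851 promoters of the same length 25.7% held at least 1 match, 7.11% at least 2 and 1.97% at least 3. A match describes letters and is not evidence of a bound site.

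Among the zinc transporters, 8 genes of the Slc30 family, which move zinc out of the cytosol, and 13 of the Slc39 family, which bring it in, were tested. Beside Slc30a8, which is counted with the granule genes, 2 Slc30 genes were lower and 1 was higher, and 2 Slc39 genes were lower and 1 was higher. Slc30a2 had 0.758, 1.06 and 0.590 CPM in KO islets, against 3.19, 2.42 and 2.93 CPM in WT islets (-1.84 ± 0.39, adjusted p = 0.0207). Slc39a5, which encodes a basolateral importer of acinar and gut cells, had 0.265, 0.325 and 0.164 CPM in KO islets, against 1.25, 0.953 and 0.917 CPM in WT islets (-2.05 ± 0.44, adjusted p = 0.0225). Slc30a3 averaged 0.186 ± 0.0498 CPM in KO islets and 0.897 ± 0.176 CPM in WT islets (-2.25 ± 0.51, adjusted p = 0.028). These 3 genes had few reads. With the acinar level as a covariate the log2 fold changes were 0.79 for Slc30a2, -0.47 for Slc39a5 and -0.21 for Slc30a3, all with SEs above 0.5.

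The differences in more abundant transporters were small. Slc30a5, a transporter of the early secretory pathway, had 79.6, 81.7 and 81.0 CPM in KO islets, against 71.3, 68.7 and 70.9 CPM in WT islets (0.20 ± 0.05, adjusted p = 0.0433). Slc39a13 had 31.8, 30.8 and 33.0 CPM in KO islets, against 26.4, 27.7 and 26.6 CPM in WT islets (0.25 ± 0.05, adjusted p = 0.0237). Slc39a10 had 14.3, 13.6 and 13.9 CPM in KO islets, against 19.5, 19.6 and 18 CPM in WT islets (-0.45 ± 0.11, adjusted p = 0.0373). Slc30a1, the exporter of the cell surface that is itself a target of MTF1, had 29.3, 27.5 and 27.0 CPM in KO islets and 28.5, 26.5 and 27.6 CPM in WT islets (0.02 ± 0.05, adjusted p = 0.885). Each of these called transporters lost its call when some single libraries were left out. Slc30a3, Slc30a5 and Slc39a10 lost it without any of the 6, with adjusted p up to 0.142. Slc30a2 and Slc39a13 lost it without KO replicate 1 or 3 or WT replicate 1 or 3, and Slc39a5 without any KO library or WT replicate 1.

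**Figure D2:**
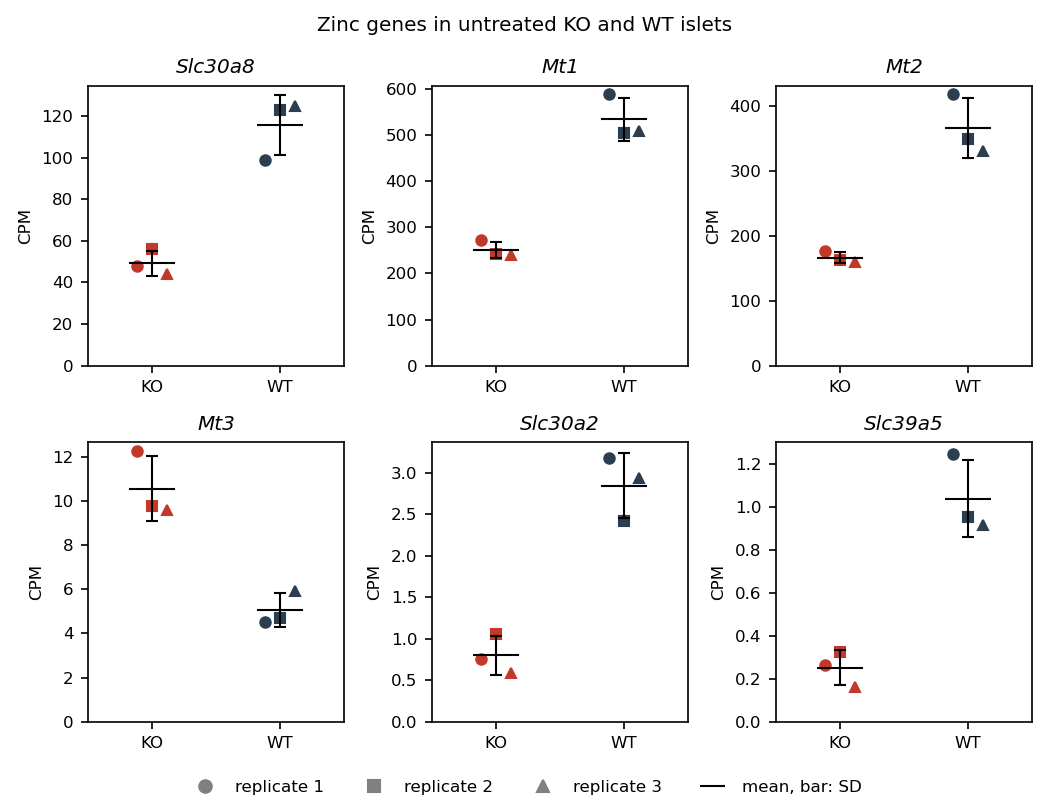
CPM (y axis, from 0) of Slc30a8, 3 metallothionein genes and the transporters Slc30a2 and Slc39a5 in untreated KO and WT islets (x axis). Points are libraries, and black bars give mean and SD (n = 3); in all 6 panels the KO and WT points do not overlap, and Mt3 is the panel in which KO is higher.

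Digestive enzyme genes of acinar cells made up the most uniform difference. Of 34 listed acinar genes 32 were tested, 28 were lower in KO islets and none was higher, and the median log2 fold change was -2.22. The summed acinar level was 2098, 3086 and 2236 CPM in KO islets, against 10248, 10276 and 10277 CPM in WT islets. Acinar genes took 0.246% ± 0.0540 of all counts in KO islets and 1.04% ± 0.0151 in WT islets (SD, n = 3 each). Heterozygous islets lay between, with 4703, 5604 and 6569 CPM. The 27 lowest of the 28 called genes had log2 fold changes between -2.57 (Try10) and -2.03 (Try5).

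Single enzymes followed the sum. Ctrb1, which encodes a chymotrypsinogen, had 709, 1119 and 721 CPM in KO islets, against 3759, 3546 and 3671 CPM in WT islets (-2.11 ± 0.32, adjusted p = 0.0029). Cpa1, which encodes a carboxypeptidase, had 98.7, 130 and 91.5 CPM in KO islets, against 483, 561 and 506 CPM in WT islets (-2.28 ± 0.31, adjusted p = 0.0017). Cela1, an elastase gene, had 99.1, 132 and 83.0 CPM in KO islets, against 508, 449 and 371 CPM in WT islets (-2.08 ± 0.28, adjusted p = 0.0017). In each of these genes the highest KO library lay below the lowest WT library, and KO replicate 2 was the highest KO library.

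The called list covered lipases, proteases, their inhibitor and granule proteins. Pnlip, which encodes pancreatic lipase, averaged 81.8 ± 30.0 CPM in KO islets and 420 ± 106 CPM in WT islets (-2.36 ± 0.38, adjusted p = 0.00408). Amy2b, an amylase family member that the annotation classes as an unprocessed pseudogene, averaged 25.2 ± 8.74 CPM in KO islets and 138 ± 29.3 CPM in WT islets (-2.46 ± 0.34, adjusted p = 0.0017). Cpb1, Ctrl and Rnase1 had log2 fold changes of -2.28, -2.39 and -2.30. Zg16, which encodes a zymogen granule lectin, averaged 5.4 ± 1.78 CPM in KO islets and 28.8 ± 4.61 CPM in WT islets (-2.42 ± 0.27, adjusted p = 0.000557), the smallest adjusted p of the list. The trypsinogen gene Try4 (-2.31 ± 0.28, adjusted p = 0.000961) and the amylase and elastase genes have near-identical copies, between which reads are assigned with less certainty. Pdia2, which encodes a pancreatic protein disulfide isomerase and is in no list, averaged 4.56 ± 1.99 CPM in KO islets and 23.6 ± 2.37 CPM in WT islets (-2.38 ± 0.34, adjusted p = 0.00229).

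The transcription factors of acinar cells did not all follow the enzymes. Ptf1a, which with Rbpjl drives enzyme genes, had 0.569, 0.325 and 0.426 CPM in KO islets, against 1.59, 3.30 and 2.09 CPM in WT islets (-2.38 ± 0.54, adjusted p = 0.0267). Rbpjl had 0.341, 0.365 and 0.328 CPM in KO islets, against 0.623, 1.31 and 0.917 CPM in WT islets, and did not pass (-1.45 ± 0.62, adjusted p = 0.227). Bhlha15, a secretory cell factor, had 66.5, 63.2 and 59.7 CPM in KO islets and 44.9, 47.3 and 55.3 CPM in WT islets (0.36 ± 0.12, adjusted p = 0.114). Ptf1a, Rbpjl and Bhlha15 were chosen after their values were seen. The acinar count was 25 without KO replicate 1 and 27 without any other single library, and 28 by DESeq2 and by limma voom.

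Promoters of the 3 enzymes described first are shown because the PTF1 complex binds an E-box beside a TTTCCC box in promoters of this class. They are RefSeq sequences of build GRCm38.p6 with the same window, in the direction of the gene: chr6:30638968-30639267 on the plus strand for Cpa1, chr8:111690961-111691260 on the minus strand for Ctrb1 and chr15:100687871-100688170 on the minus strand for Cela1. Capitals mark TTTCCC and the E-boxes CACCTG or CAGCTG, each on either strand.
Cpa1: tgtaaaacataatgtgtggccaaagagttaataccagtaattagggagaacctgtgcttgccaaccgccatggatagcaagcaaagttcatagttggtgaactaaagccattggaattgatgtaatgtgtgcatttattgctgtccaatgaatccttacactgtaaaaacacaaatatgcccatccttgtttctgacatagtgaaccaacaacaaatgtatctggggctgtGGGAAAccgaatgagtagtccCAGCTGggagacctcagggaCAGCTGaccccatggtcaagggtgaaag
Ctrb1: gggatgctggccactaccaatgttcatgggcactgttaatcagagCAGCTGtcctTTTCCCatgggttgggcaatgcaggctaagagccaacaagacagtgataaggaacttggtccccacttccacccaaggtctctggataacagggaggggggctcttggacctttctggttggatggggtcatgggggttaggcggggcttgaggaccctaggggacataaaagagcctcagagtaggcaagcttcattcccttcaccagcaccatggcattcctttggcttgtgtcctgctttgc
Cela1: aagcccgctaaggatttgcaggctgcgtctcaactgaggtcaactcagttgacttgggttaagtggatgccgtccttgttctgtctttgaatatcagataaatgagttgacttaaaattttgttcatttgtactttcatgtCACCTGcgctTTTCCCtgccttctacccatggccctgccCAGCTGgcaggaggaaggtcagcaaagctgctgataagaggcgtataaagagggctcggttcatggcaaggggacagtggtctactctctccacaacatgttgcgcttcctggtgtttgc
Each window held 1 TTTCCC box, with 2 E-boxes for Cpa1 and Cela1 and 1 for Ctrb1. In Ctrb1 and Cela1 an E-box lay 10 bases before the TTTCCC box, counted start to start. Of the 25 acinar genes with a RefSeq promoter, 8 held the TTTCCC box (32%) and 17 an E-box (68%), against 25.2% and 32.9% of all 32851 promoters. Both motifs occurred together in 8.16% of all promoters, and no such share was computed for the acinar genes. Cela1 was not picked by the naming rule, and the 3 windows do not stand for the acinar list.

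Duct genes were lower too, less evenly than the acinar genes. All 25 were tested, 11 were lower and none higher, and the median log2 fold change was -0.65. Their summed level was 4752, 6836 and 5885 CPM in KO islets, against 13419, 12359 and 12916 CPM in WT islets. Most of the sum in WT islets came from a single gene, Clu. Clu, which encodes the secreted chaperone clusterin, had 1966, 3270 and 2464 CPM in KO islets, against 7695, 7286 and 8312 CPM in WT islets (-1.60 ± 0.26, adjusted p = 0.0041). Krt19, the keratin most used to mark ducts, had 28.4, 40.7 and 36.6 CPM in KO islets, against 109, 113 and 129 CPM in WT islets (-1.73 ± 0.32, adjusted p = 0.00976). The mucin gene Muc1 had 26.1, 35.4 and 32.0 CPM in KO islets, against 80.3, 78.1 and 86.3 CPM in WT islets (-1.39 ± 0.23, adjusted p = 0.00478). In these genes every KO library lay below every WT library, and KO replicate 1 was the lowest.

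Keratins of simple epithelia and secreted epithelial proteins were among the called genes. Krt8 had 419, 492 and 435 CPM in KO islets, against 898, 870 and 924 CPM in WT islets (-0.999 ± 0.14, adjusted p = 0.00202). Its partner Krt18 had 363, 412 and 360 CPM in KO islets, against 744, 680 and 758 CPM in WT islets (-0.94 ± 0.15, adjusted p = 0.00318). Krt23 and the trefoil factor gene Tff2 had log2 fold changes of -2.05 ± 0.28 and -2.31 ± 0.31 (adjusted p = 0.0017 each). Other genes that define ducts did not pass: Sox9 had 8.12, 16.4 and 22.5 CPM in KO islets and 25.4, 38.3 and 23.8 CPM in WT islets (-0.89 ± 0.50, adjusted p = 0.369), and Spp1 overlapped between the groups (-0.63 ± 0.44, adjusted p = 0.49). Clu, Muc1, Sox9 and Spp1 were chosen after their values were seen. Keratin genes have pseudogene copies, which makes the assignment of their reads less certain. The duct count was 7 without KO replicate 1, where Krt19 lost its call, and 8 to 10 without each other library.

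Regenerating (Reg) lectins, which acinar cells release in injury, moved with the acinar genes. In the list of epithelial injury genes, mucins and Reg lectins 17 of 19 were tested, 9 were lower and none higher, and the median was -1.68. Reg2 had 24.1, 26.1 and 22.8 CPM in KO islets, against 90.2, 109 and 135 CPM in WT islets (-2.20 ± 0.32, adjusted p = 0.00259). Reg3d and Reg3a had log2 fold changes of -2.10 ± 0.36 and -2.27 ± 0.42 (adjusted p = 0.00558 and 0.00976), and reads of these near-identical Reg3 genes are assigned with less certainty. The amino acid transporter gene Slc6a14 had 0, 2 and 1 reads in KO islets, against 45, 20 and 14 reads in WT islets. The ratio of KO to WT, scaled for depth, was 0.0379, with a 95% counting interval of 0.00765 to 0.115 (adjusted p = 0.00264). The list's count was 4 to 7 when any single library was left out. Reg2 had a log2 fold change of -0.36 ± 0.50 with the acinar level as a covariate.

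**Figure D3:**
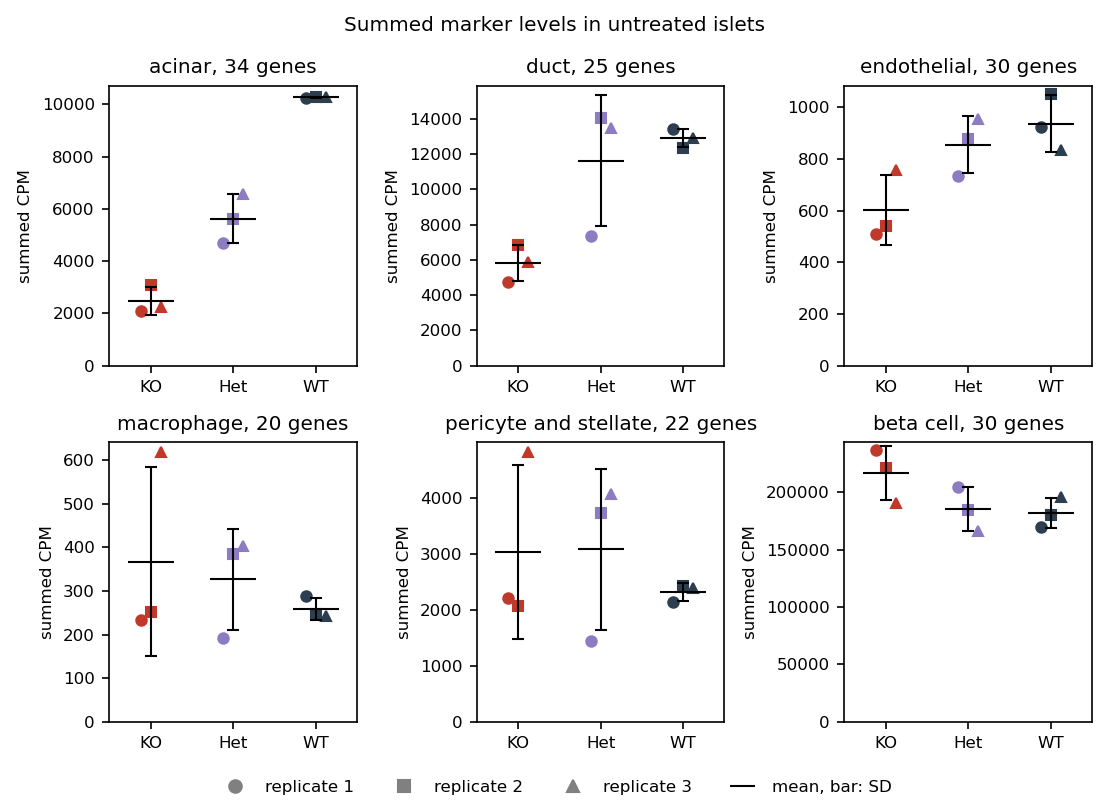
Summed CPM (y axis, from 0) of 6 marker lists in untreated KO, heterozygous and WT islets (x axis). Points are libraries, and black bars give mean and SD (n = 3); acinar sums are 2098 to 3086 CPM in KO islets and 10248 to 10277 CPM in WT islets, and KO replicate 3 stands above the other KO libraries for macrophage and stromal genes.

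Endothelial genes were also lower, with smaller differences. All 30 were tested, 27 had a negative log2 fold change, 5 were lower and none higher, and the median was -0.72. Their summed level was 510, 540 and 759 CPM in KO islets, against 923, 1053 and 835 CPM in WT islets. Kdr, which encodes the main receptor for VEGF-A on capillaries, had 42.4, 43.6 and 53.3 CPM in KO islets, against 98.6, 112 and 86.2 CPM in WT islets (-1.09 ± 0.18, adjusted p = 0.00513). Flt1, which encodes another VEGF receptor, had 41.8, 44.3 and 56.7 CPM in KO islets, against 95, 110 and 79.1 CPM in WT islets (-0.99 ± 0.22, adjusted p = 0.025). KO replicate 3 was the KO library nearest to WT for both, and the groups did not overlap.

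Further vascular genes were lower or did not pass. Adgrl4 and Robo4, which encode endothelial surface receptors, had log2 fold changes of -1.03 ± 0.24 and -0.84 ± 0.20 (adjusted p = 0.0357 and 0.0367), and Ptprb, an endothelial phosphatase gene chosen after its values were seen, -0.95 ± 0.23 (adjusted p = 0.0388). Pecam1, a pan-endothelial adhesion gene, had 23.7, 26.7 and 48.0 CPM in KO islets and 52.6, 56.4 and 44.8 CPM in WT islets, with overlapping groups (-0.64 ± 0.25, adjusted p = 0.187). Without KO replicate 3 its log2 fold change was -1.02 ± 0.23 and it was called. Vegfa, the ligand that islet cells make, had 394, 389 and 389 CPM in KO islets and 366, 398 and 364 CPM in WT islets (0.06 ± 0.10, adjusted p = 0.826). In the angiogenic list Hif1a (-0.37 ± 0.08, adjusted p = 0.0183) and Dll4 (-0.65 ± 0.17, adjusted p = 0.0455) were lower, and the other 18 did not pass. Hif1a lost its call without KO replicate 1 or 2 or WT replicate 1, and Dll4 without any library other than KO replicate 3. The endothelial count rested on single libraries: it was 6 without KO replicate 3 and 4 without WT replicate 3, and 1 without KO replicate 1 or 2 or WT replicate 1 or 2, where Kdr alone kept its call. By DESeq2 it was 10 and by limma voom 17.

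Genes of the endocrine cells showed small differences, mostly upward. In the beta cell list 30 of 30 were tested, 3 were higher and none lower, 27 had a positive log2 fold change and the median was 0.28. Summed, they took 21.4% ± 1.6 of counts in KO islets and 18.4% ± 1.07 in WT islets (SD, n = 3 each). Slc2a2, which encodes the glucose transporter GLUT2, had 213, 226 and 174 CPM in KO islets, against 93.3, 127 and 119 CPM in WT islets (0.85 ± 0.21, adjusted p = 0.0435). Prlr, which encodes the prolactin receptor, had 287, 309 and 273 CPM in KO islets, against 162, 186 and 177 CPM in WT islets (0.73 ± 0.15, adjusted p = 0.0195). Trpm5, which encodes a calcium-activated cation channel, had 28.3, 26.9 and 18.5 CPM in KO islets, against 8.83, 15.3 and 13.9 CPM in WT islets (0.96 ± 0.25, adjusted p = 0.0481). KO replicate 3 was the lowest KO library in all 3 genes. Without that library the values were 0.95 for Slc2a2, 0.77 for Prlr and 1.13 for Trpm5, and all 3 stayed called. Prlr lost its call without KO replicate 1 or 2 or WT replicate 1 or 3, and Slc2a2 and Trpm5 lost it without any single library other than KO replicate 3, with adjusted p up to 0.215.

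Insulin genes and beta cell factors did not pass. Ins1 had 62646, 57949 and 52137 CPM in KO islets and 45159, 49336 and 53203 CPM in WT islets (0.23 ± 0.12, adjusted p = 0.331). Ins2 had 148430, 138020 and 116210 CPM in KO islets and 102900, 111270 and 121170 CPM in WT islets (0.26 ± 0.13, adjusted p = 0.3). Iapp, which encodes islet amyloid polypeptide, averaged 17292 ± 1277 CPM in KO islets and 15021 ± 1282 CPM in WT islets (0.20 ± 0.12, adjusted p = 0.402). For all 3 genes the groups overlapped, with KO replicate 3 inside the WT range.

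Among other genes of mature beta cells, Mafa and Ucn3 gave larger values than the insulin genes, with larger errors. Mafa had 607, 612 and 564 CPM in KO islets and 307, 449 and 461 CPM in WT islets (0.55 ± 0.21, adjusted p = 0.171). Ucn3 had 197, 185 and 156 CPM in KO islets and 78.4, 132 and 133 CPM in WT islets (0.65 ± 0.23, adjusted p = 0.154). WT replicate 1 was the lowest library for both. Pdx1 (0.30 ± 0.14, adjusted p = 0.278) and Glp1r (0.25 ± 0.14, adjusted p = 0.364) did not pass either. Insrr, which encodes a receptor of the insulin receptor family and is in no list, was higher, with 138, 153 and 110 CPM in KO islets against 57.8, 93.8 and 80.7 CPM in WT islets (0.79 ± 0.20, adjusted p = 0.0445). It lost its call without KO replicate 1 or 2 or WT replicate 1 or 3.

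The other endocrine lists moved little. Of 24 genes of prohormone processing and the secretory granule only Slc30a8 passed, and the median was 0.12. Of 14 alpha cell genes 2 were higher, with a median of 0.32: Slc7a2, an amino acid transporter gene (0.52 ± 0.13, adjusted p = 0.0447), and Gc, which encodes vitamin D-binding protein (0.39 ± 0.10, adjusted p = 0.0468). Gc lost its call without any of the 6 libraries and Slc7a2 without any other than KO replicate 3. Gcg, which encodes glucagon, averaged 16664 ± 2705 CPM in KO islets and 13392 ± 2411 CPM in WT islets (0.32 ± 0.19, adjusted p = 0.398). Sst, which encodes somatostatin, averaged 6673 ± 1079 CPM in KO islets and 6014 ± 1064 CPM in WT islets (0.15 ± 0.16, adjusted p = 0.686). Ppy had 1957, 432 and 1263 CPM in KO islets and 744, 1960 and 1499 CPM in WT islets (-0.20 ± 0.68, adjusted p = 0.912), and this spread, which exceeds that of any other hormone here, hides all but large differences.

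In the delta and PP cell list only Nts, which encodes neurotensin, passed, with 2.12, 0.812 and 1.80 CPM in KO islets against 6.86, 2.86 and 4.14 CPM in WT islets (-1.54 ± 0.36, adjusted p = 0.034). It kept its call only without WT replicate 2. None of 18 genes of glucose sensing and excitability passed (median 0.14); the smallest p-values belonged to Atp2a3, an endoplasmic reticulum calcium pump gene (0.44 ± 0.16, adjusted p = 0.142), and Kcnh6 (0.32 ± 0.13, adjusted p = 0.203). None of 15 genes that beta cells normally silence or share with progenitors passed (median -0.08), with Hk1 at -0.43 ± 0.20 (adjusted p = 0.259) and Smad3 at -0.69 ± 0.37 (adjusted p = 0.342). In these 3 lists 2, 3 and 1 genes had an unadjusted p under 0.05, beside 18.5% of all genes tested.

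**Figure D4:**
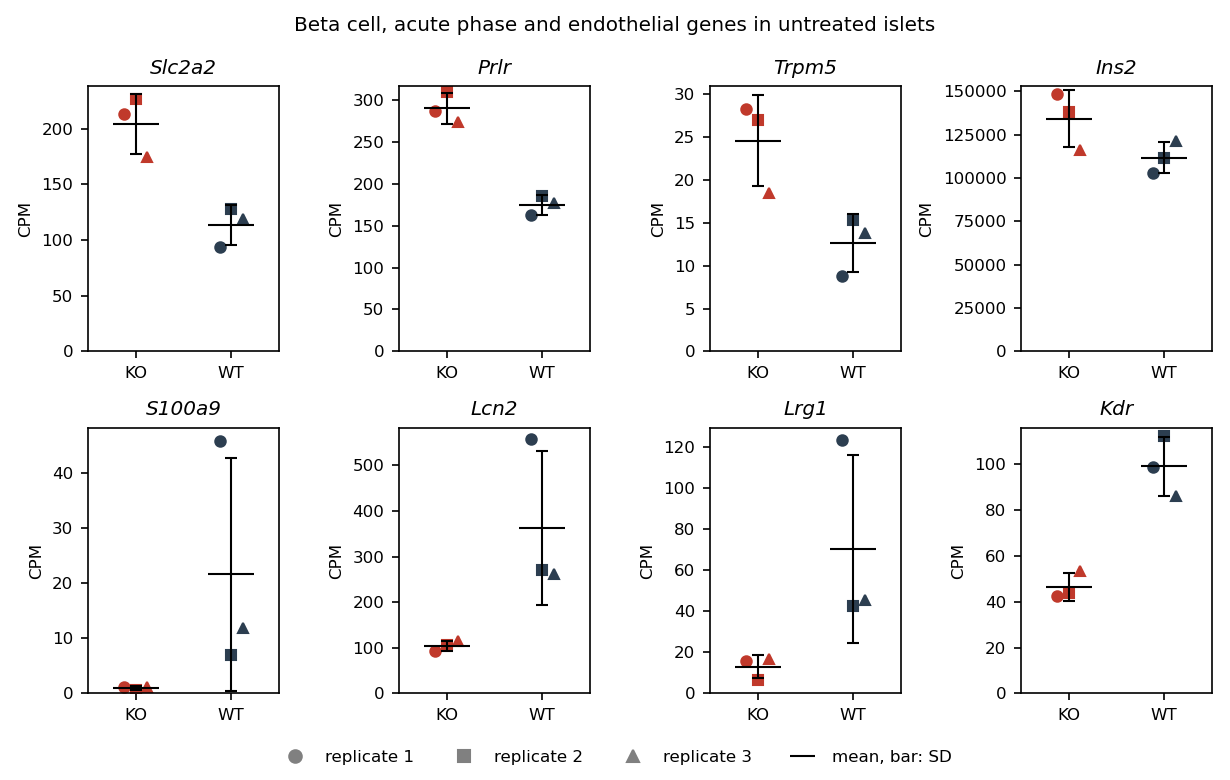
CPM (y axis, from 0) of 4 beta cell genes (top row), 3 acute phase genes and the endothelial gene Kdr (bottom row) in untreated KO and WT islets (x axis). Points are libraries, and black bars give mean and SD (n = 3); Ins2 overlaps between groups, and WT replicate 1 is far above the other WT libraries for S100a9, Lcn2 and Lrg1.

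Acute phase genes were lower in KO islets, with differences that were large and uneven. Of 22 tested genes of the calprotectin, serum amyloid and acute phase list 8 were lower and none higher, and the median was -1.84. Their summed level was 228, 238 and 364 CPM in KO islets, against 1046, 561 and 503 CPM in WT islets, and heterozygous islets ranged from 332 to 1197 CPM. S100a9 and S100a8 encode the subunits of calprotectin, a calcium and zinc binding protein of neutrophils and inflamed epithelia. S100a9 had 1.21, 0.649 and 1.21 CPM in KO islets, against 46.0, 7.07 and 11.8 CPM in WT islets (-4.38 ± 0.89, adjusted p = 0.0175). S100a8 had 0.379, 0.325 and 0.361 CPM in KO islets, against 9.11, 1.75 and 1.80 CPM in WT islets (-3.58 ± 0.83, adjusted p = 0.031). WT replicate 1 was the highest library for both, and the groups did not overlap.

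Other acute phase genes were lower too. Lcn2, which encodes the iron-binding lipocalin-2, had 93.1, 106 and 115 CPM in KO islets, against 559, 270 and 262 CPM in WT islets (-1.80 ± 0.36, adjusted p = 0.0165). Lrg1 had 15.9, 6.53 and 16.6 CPM in KO islets, against 124, 42.8 and 45.4 CPM in WT islets (-2.44 ± 0.53, adjusted p = 0.0237). Steap4, a metalloreductase gene, had 0.607, 0.649 and 2.06 CPM in KO islets, against 14.4, 3.73 and 3.15 CPM in WT islets (-2.63 ± 0.61, adjusted p = 0.0307). Cfb, which encodes complement factor B, averaged 1.06 ± 0.378 CPM in KO islets and 3.54 ± 1.48 CPM in WT islets (-1.71 ± 0.36, adjusted p = 0.0206). Itih4 (-1.89 ± 0.41, adjusted p = 0.0237) had 0.796, 1.06 and 0.393 CPM in KO islets, against 3.22, 2.74 and 2.27 CPM in WT islets. The chemokine gene Cxcl1 had 1.33, 1.26 and 2.23 CPM in KO islets, against 12.9, 5.24 and 6.09 CPM in WT islets (-2.31 ± 0.50, adjusted p = 0.0216), the only one called of 23 chemokine and cytokine genes, and lost its call without KO replicate 1 or 2 or WT replicate 1.

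WT replicate 1 weighed on these calls. Without it none of the acute phase list passed, and the log2 fold changes were -3.19 for S100a9, -2.30 for S100a8, -1.35 for Lcn2, -1.76 for Lrg1 and -1.58 for Steap4. Without KO replicate 1 the count was also 0, without KO replicate 2 it was 1 and without KO replicate 3 it was 6, while it was 8 without WT replicate 2 or 3. Itih4 lost its call without KO replicate 1 or 3 or WT replicate 1 or 2, so the 8 genes without WT replicate 2 were not the same 8. Neutrophil markers were close to absent: 8 of 12 did not pass the filter, and the sum was 1.3, 0.6 and 2.6 CPM in KO islets and 7.9, 1.2 and 2.0 CPM in WT islets. Of the 4 tested, Csf3r (1.35 ± 0.41, adjusted p = 0.0923) and Ltf (-5.18 ± 1.59, adjusted p = 0.0925) had the smallest p-values and opposite signs. Hamp, which encodes the iron hormone hepcidin and is in no list, had 0.607, 0.203 and 0.393 CPM in KO islets, against 8.10, 3.22 and 3.45 CPM in WT islets (-3.60 ± 0.43, adjusted p = 0.000838), and it kept its call without any single library.

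Targets of NF-kB and immediate early genes were lower by smaller amounts. Of 24 NF-kB genes 5 were lower and none higher, with a median of -0.36. Birc3, a cell death inhibitor gene, had 15.3, 14.2 and 22.8 CPM in KO islets, against 38.8, 26.9 and 25.9 CPM in WT islets (-0.80 ± 0.17, adjusted p = 0.0207). Nfkbiz, Tnip1 and Rela had log2 fold changes of -0.48 ± 0.10, -0.41 ± 0.08 and -0.38 ± 0.09 (adjusted p = 0.0146, 0.018 and 0.029). Nos2, which encodes the inducible nitric oxide synthase, had 0.0379, 0.0812 and 0.754 CPM in KO islets and 2.91, 0.874 and 0.734 CPM in WT islets and did not pass (-2.26 ± 0.78, adjusted p = 0.133). The NF-kB count was 0 without KO replicate 1 or WT replicate 1, 1 without KO replicate 2, 8 without KO replicate 3, and 3 and 2 without WT replicates 2 and 3.

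Among 20 immediate early genes 7 were lower and none higher, with a median of -0.46. Klf4 had 14.2, 16.4 and 17.6 CPM in KO islets, against 27.7, 25.7 and 27.2 CPM in WT islets (-0.74 ± 0.10, adjusted p = 0.0017), and it kept its call without any single library. Atf3, which is also in the endoplasmic reticulum stress list, had 8.30, 9.78 and 8.49 CPM in KO islets, against 14.9, 13.8 and 12.3 CPM in WT islets (-0.63 ± 0.12, adjusted p = 0.0108). Jun and Dusp1 had log2 fold changes of -0.64 ± 0.14 and -0.44 ± 0.09 (adjusted p = 0.0261 and 0.0224). KO replicate 3 was the KO library nearest to WT for Klf4, Jun and Dusp1. The count was 1 without KO replicate 1 or WT replicate 1, 2 without KO replicate 2, 7 without KO replicate 3, and 3 and 5 without WT replicates 2 and 3. None of 40 interferon targets passed (median -0.17). An unadjusted p under 0.05 was found for 9 of them, beside 18.5% of all genes tested. Irf7 was at -1.44 ± 0.44 (adjusted p = 0.0923) and Irf9 at -0.48 ± 0.15 (adjusted p = 0.103).

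The summed level of macrophage genes was high in KO replicate 3. It was 233, 251.3 and 618 CPM in KO islets and 288, 248 and 242 CPM in WT islets. All 20 genes were tested and 2 were higher, with a median of 0.99. Of the 20, 18 had a positive log2 fold change. An unadjusted p under 0.05 was found for 16, beside 18.5% of all genes tested. In 11, every KO library lay above every WT library, as in 11% of all genes tested. C1qa, which encodes a complement subunit made by macrophages, had 29.0, 29.5 and 61.3 CPM in KO islets, against 19.8, 19.6 and 22.9 CPM in WT islets (0.95 ± 0.24, adjusted p = 0.0437). Itgax, which encodes the integrin CD11c, had 5.95, 5.76 and 9.37 CPM in KO islets, against 3.67, 2.90 and 3.67 CPM in WT islets (1.04 ± 0.23, adjusted p = 0.0267). Bin2 and Cybb, expressed in myeloid cells and in no list, had log2 fold changes of 1.98 ± 0.50 and 0.93 ± 0.23 (adjusted p = 0.0447 and 0.0438). Without KO replicate 3 the values were 0.49 for C1qa, 0.78 for Itgax, 1.13 for Bin2 and 0.64 for Cybb, and none of the 4 was called. These calls were also lost without any WT library, those of Bin2 and Itgax without KO replicate 1 and that of Cybb without KO replicate 2.

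Other genes set KO replicate 3 apart more widely. Marco, a scavenger receptor gene of macrophages chosen after its values were seen, had 0.0758, 0.162 and 12.2 CPM in KO islets and 0.381, 0.199 and 0.11 CPM in WT islets (4.14 ± 1.41, adjusted p = 0.128). Cd4 had 0.683, 1.18 and 16.3 CPM in KO islets and 0.935, 0.914 and 0.880 CPM in WT islets (2.74 ± 0.89, adjusted p = 0.111). Of 12 lymphocyte and NK genes 10 did not pass the filter, Cd3e, Cd3d and Cd8a among them, and Cd79a overlapped between groups (-0.02 ± 0.26, adjusted p = 0.997). The stromal sum of pericyte and stellate genes was 2205, 2060 and 4817 CPM in KO islets and 2138, 2425 and 2387 CPM in WT islets, and none of 22 genes passed (median 0.35), with Rgs5 at -0.62 ± 0.17 (adjusted p = 0.0603) and Myl9 at 0.68 ± 0.41 (adjusted p = 0.408). None of 30 matrix genes passed (median 0.04), with Nid2 at -0.62 ± 0.21 and Postn at 0.77 ± 0.27 (adjusted p = 0.12 and 0.139). Unadjusted p-values under 0.05 were found for 1 pericyte gene and 3 matrix genes, beside 18.5% of all genes tested.

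Remaining cell types gave no call. Of 10 genes of glia and nerve none passed, with Erbb3 at -0.54 ± 0.17 (adjusted p = 0.105), and 2 had an unadjusted p under 0.05. Adipocyte and erythroid genes were almost all below the filter, with 1 of 8 and 3 of 7 tested: Fabp4 had -0.67 ± 0.29 (adjusted p = 0.224), and the globin genes Hba-a1 and Hbb-bs, whose copies share reads, -1.45 ± 0.57 and -1.20 ± 0.49 (adjusted p = 0.185 and 0.204).

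Mitochondrial genes showed small differences, mostly upward, and few calls. The title of the series names mitochondrial respiration. Of 76 nuclear genes of oxidative phosphorylation 55 had a positive log2 fold change, with a median of 0.04, and 1 passed. That gene, Atp5l, which encodes a subunit of ATP synthase, had 164, 152 and 146 CPM in KO islets, against 117, 120 and 135 CPM in WT islets (0.32 ± 0.07, adjusted p = 0.0233). It lost its call without KO replicate 1 or 2 or WT replicate 1 or 2. None of 13 mitochondrially encoded genes passed and none had an unadjusted p under 0.05. All 13 had a positive log2 fold change, with a median of 0.19. Of these mt-Cytb had 2810, 3404 and 2588 CPM in KO islets and 2707, 2500 and 2534 CPM in WT islets (0.19 ± 0.11, adjusted p = 0.397), and mt-Nd4l 0.53 ± 0.30 (adjusted p = 0.38). Of 22 genes of the TCA cycle and pyruvate entry only Idh2, which encodes the mitochondrial isocitrate dehydrogenase, passed, with 84.3, 84.4 and 75.7 CPM in KO islets against 61.9, 70.4 and 70.0 CPM in WT islets (0.27 ± 0.06, adjusted p = 0.0357). It stayed called only without KO replicate 3.

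Genes of intermediary metabolism and stress gave few calls. None of 15 glycolysis genes passed, although 13 had a negative log2 fold change and the median was -0.34. An unadjusted p under 0.05 was found for 10 of them, beside 18.5% of all genes tested. Pfkp had 57.3, 40.5 and 51.4 CPM in KO islets and 89.8, 68.1 and 65.2 CPM in WT islets (-0.58 ± 0.20, adjusted p = 0.145), and Pfkl -0.52 ± 0.20 (adjusted p = 0.174). Of 20 genes of cholesterol synthesis only Fdft1, which encodes squalene synthase, was lower (-0.28 ± 0.07, adjusted p = 0.0452), and it lost its call without any of the 6 libraries. Of 26 genes of endoplasmic reticulum stress and folding, Dnajb9, a co-chaperone gene, was higher, with 286, 318 and 273 CPM in KO islets against 233, 217 and 208 CPM in WT islets (0.41 ± 0.10, adjusted p = 0.0364), and Atf3 was lower. Of these 26 genes 22 had a positive log2 fold change, with a median of 0.13, 12 had an unadjusted p under 0.05, and 16 had every KO library above every WT library, beside the 11% of all genes given above. Their summed level was 11512, 11200 and 11017 CPM in KO islets and 10290, 10070 and 10193 CPM in WT islets, with no overlap between the groups. Dnajb9 stayed called only without KO replicate 3, and Atf3 lost its call without KO replicate 1 or WT replicate 1. None of 20 antioxidant genes passed (8 with an unadjusted p under 0.05), with Gpx2 at 0.40 ± 0.11 (adjusted p = 0.0564) and Sod2 at -0.28 ± 0.09 (adjusted p = 0.107). None of 25 proliferation genes passed (3 with an unadjusted p under 0.05), with Ccnd2 at 0.33 ± 0.11 and Cdkn1a at -0.21 ± 0.07 (adjusted p = 0.125 and 0.115).

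A few of the larger upward differences fell outside all lists. Olfm4, which encodes a secreted olfactomedin, had 12.1, 15.8 and 14.8 CPM in KO islets, against 7.34, 7.94 and 6.49 CPM in WT islets (0.97 ± 0.16, adjusted p = 0.00415), and heterozygous islets had 13.9, 14.2 and 16.2 CPM. Of the 12 higher genes named by size, Olfm4 and Mt3 were those that kept their call without any single library. Th, which encodes tyrosine hydroxylase, had 19.4, 16.4 and 12.4 CPM in KO islets, against 8.35, 9.65 and 8.77 CPM in WT islets (0.85 ± 0.19, adjusted p = 0.0244). Akr1c14, an aldo-keto reductase gene, had 57.6, 66.8 and 50.7 CPM in KO islets, against 28.5, 34.8 and 32.8 CPM in WT islets (0.86 ± 0.20, adjusted p = 0.035). Mir670hg, a noncoding host transcript, had a log2 fold change of 0.83 ± 0.21 (adjusted p = 0.0447). Th, Akr1c14 and Mir670hg stayed called only without KO replicate 3.

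Genes near the targeted locus were examined because a targeted allele can carry flanking sequence of another strain. Within 10 Mb of Slc30a8 on chromosome 15, 3 of 68 other tested genes were called, or 4.41%, beside 3.04% over all genes, and all 3 were lower. Mal2 had 14.8, 17.0 and 15.3 CPM in KO islets, against 31.9, 24.4 and 26.0 CPM in WT islets (-0.81 ± 0.17, adjusted p = 0.0209). Sntb1 had 1.82, 1.74 and 1.48 CPM in KO islets, against 2.81, 3.50 and 2.57 CPM in WT islets (-0.81 ± 0.17, adjusted p = 0.0183). Trib1 had 77.3, 73.9 and 79.7 CPM in KO islets, against 108, 95.5 and 90.4 CPM in WT islets (-0.35 ± 0.07, adjusted p = 0.0207). Each lost its call without KO replicate 1 or 2 or WT replicate 1, Sntb1 and Mal2 also without KO replicate 3 and Sntb1 without WT replicate 2. Within 5 Mb 2 of 24 genes were called (8.33%) and within 20 Mb 4 of 144 (2.78%). No test was made of these small counts.

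The same genotypes were compared again in islets given cytokines, which share no library with the untreated islets. The labels do not say whether they share mice, but the library titles carry the same numbers in both treatments. Deviations from the group mean correlated at 0.014, 0.25 and 0.59 between same-numbered untreated and cytokine KO libraries. Untreated KO replicate 1 correlated best with cytokine KO replicate 2 (0.52). The comparison with cytokines may therefore not be independent of the untreated one. With cytokines 678 genes were lower and 261 higher in KO islets, together 939 genes or 5.34% of those tested, with 3.85% lower and 1.48% higher. Of the lower genes 230 were lower in both comparisons, which is 52.8% of the untreated list and 33.9% of the cytokine list. Of the higher genes 18 were shared, or 18.2% and 6.90% of the lists.

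Exocrine and vascular differences were present again. Acinar sums with cytokines were 1020, 2063 and 2685 CPM in KO islets, against 7550, 13421 and 11742 CPM in WT islets, and 28 acinar genes were lower with a median of -2.68. Kdr had 32.9, 23.4 and 40.4 CPM in KO islets, against 82.8, 62.8 and 54.8 CPM in WT islets (-1.05 ± 0.19, adjusted p = 0.00565). Slc30a8 had 20.8, 23.2 and 20.003 CPM in KO islets, against 34.5, 43.7 and 46.4 CPM in WT islets (-0.96 ± 0.19, adjusted p = 0.0104). Mt3 was higher again (1.12 ± 0.18, adjusted p = 0.00258) and Mt1 lower (-0.70 ± 0.16, adjusted p = 0.0239), while Mt2 did not pass (-0.46 ± 0.15, adjusted p = 0.0739).

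The acute phase list differed in its values between treatments. Its median was 0.04 with cytokines and -1.84 without, and its sums with cytokines were 9118, 8303 and 9519 CPM in KO islets and 9608, 9197 and 9160 CPM in WT islets. Lcn2 with cytokines had 5470, 5137 and 5273 CPM in KO islets and 5705, 5560 and 5315 CPM in WT islets (-0.06 ± 0.35, adjusted p = 0.935). Macrophage genes had a median of 0.03 with cytokines and 0.99 without, and 0 were called with cytokines. Their sums with cytokines were 359, 332 and 399 CPM in KO islets and 660, 512 and 397 CPM in WT islets. Medians with cytokines were -0.07 for NF-kB targets and -0.0077 for glycolysis genes, and -0.87 for endothelial and -0.39 for immediate early genes. The difference between the treatments was tested directly and passed for 2 genes in all, Slc6a14 and the processed pseudogene Gm19680, or 0.0114% of genes tested, 1 upward and 1 downward (0.00569% each). For Lcn2 that test gave 1.73 (adjusted p = 0.407), for S100a9 4.13 (adjusted p = 0.349) and for Slc2a2 -0.22 (adjusted p = 0.936). Slc2a2 was at 23.5, 25.3 and 23.6 CPM in KO islets and 14.8, 16.3 and 15.5 CPM in WT islets with cytokines (0.63 ± 0.23, adjusted p = 0.116).

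**Figure D5:**
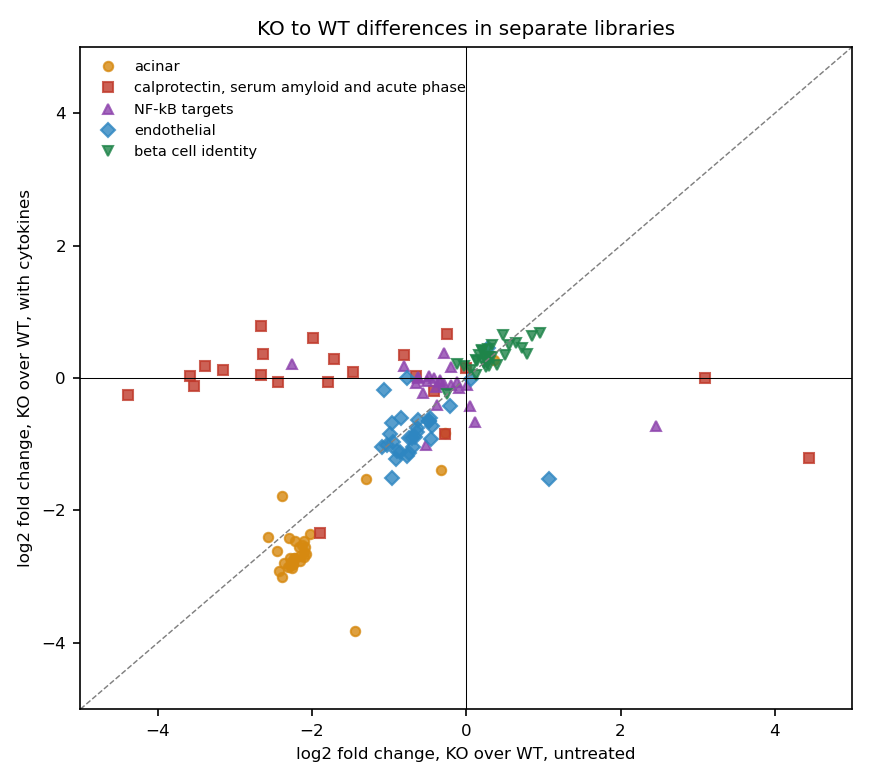
Log2 fold change of KO over WT islets without cytokines (x axis) and with cytokines (y axis) for the tested members of 5 lists, 1 point a gene; the dashed line marks equal values. Acinar genes lie near -2.22 and -2.68, beta cell genes near 0.28 and 0.32, and acute phase genes spread along the x axis around a median of 0.04 with cytokines.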

How the data were processed

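Islet RNA was read on a NovaSeq instrument, per the labels' protocols. The deposited table holds the authors' raw counts (whole numbers) for 55536 genes. FastQC 0.11.7, cutadapt 1.16, STAR 2.5.2a, featureCounts 1.6.2, DESeq2 1.30.0 and build GRCm38 are named, without roles, per the submitters' processing notes. No source used here gives the strand setting of the counting, so that overlapping genes on opposite strands are uncertain. Gene positions and exon lengths came from GENCODE M21, which matched all 17590 genes tested.

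CPM, fold changes and their tests were derived from the deposited counts with R 4.3.3 and edgeR 4.0.16: filterByExpr with a count minimum of 10, TMM scaling, and a quasi-likelihood fit to all 18 libraries with a mean for each of the 6 groups (12 residual degrees of freedom, median biological coefficient of variation 0.103). Benjamini-Hochberg adjustment ran over 17590 genes, with a threshold of 0.05. The fit was checked on simulated counts drawn independently for each library. That check cannot show the effect of shared mice or of single unusual libraries. Figures used Python 3.11.15 and matplotlib 3.10.9. Counting intervals cover counting error only.

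The alternatives were RLE size factors, no filter, a fit to the 6 libraries, DESeq2 1.42.0, limma 3.58.1 voom with sample weights, the replicate number as a block, acinar or endothelial levels as covariates, and leaving out each of the 6 libraries. Counts of list members over 35 lists were described without a set test, and 8 genes are in more than 1 list.

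Named genes were Slc30a8, the 12 higher and 12 lower called genes of largest change with a mean of at least 2 CPM, groups that do not overlap and no placeholder symbol, for each list up to 4 called genes or else 2 of smallest p, fixed islet, zinc and marker genes, called genes within 10 Mb of Slc30a8, and up to 6 genes with a called difference between treatments. The comparison, lists and genes were chosen with earlier results of these data known. Some genes picked by this rule are not reported here.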

Additional observations from a re-analysis of the deposited data

Results flagged for a closer look

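The KO to WT difference changed between treatments, by the test of that difference itself, for 2 genes. For Slc6a14 it was 5.05 ± 0.70 higher on the log2 scale with cytokines than without (adjusted p = 0.0231). Slc6a14 with cytokines had 40.2, 44.1 and 44.3 CPM in KO islets and 28.8, 30.2 and 31.5 CPM in WT islets, and without cytokines 0, 2 and 1 reads in KO islets and 45, 20 and 14 reads in WT islets. For Gm19680 it was -2.40 ± 0.33 (adjusted p = 0.0231). Gm19680 with cytokines had 0.353, 0.404 and 0.346 CPM in KO islets, against 1.78, 2.09 and 2.39 CPM in WT islets, and without cytokines 1.21, 0.812 and 0.951 CPM in KO islets and 0.970, 0.993 and 1.21 CPM in WT islets. Gm19680 is a processed pseudogene, so its reads may belong in part to copies elsewhere. Neither difference passed with the replicate number as a block.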

How the results depend on the processing

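The 535 calls became 504 with RLE size factors, 529 without the filter, 582 in the fit to 6 libraries, 357 with the endothelial covariate, 929 by DESeq2, 1756 by limma voom and 139 to 398 when any single library was left out. With the acinar covariate 0 passed by edgeR (807 with an unadjusted p under 0.05). Its values were 4.45 to 4.91 in KO islets and 6.48 to 6.59 in WT islets on the log2 scale, so that genotype and acinar level cannot be told apart and errors grew. The covariate is the mean level of the listed acinar genes themselves, so their loss of calls in that fit follows from its construction. No gene of any kind passed in it, so the 0 duct and 0 endothelial calls there say nothing particular of those lists. Slc30a8 was at -1.34 in it. Duct genes called lower numbered 7 with the endothelial covariate and 7 to 10 without single libraries. Endothelial genes numbered 1 with the endothelial covariate, 10 by DESeq2, 17 by limma voom and 1 to 6 without single libraries. The endothelial covariate is the mean level of these same listed genes, so the drop of their count with it follows from its construction. DESeq2 called 1587 genes with cytokines and 53 for the difference between treatments.

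The labels do not say whether their replicate numbers pair KO with WT libraries. Same-numbered KO and WT libraries had correlations of deviations of -0.13, 0.13 and -0.31. With 3 libraries in a group such correlations cannot exclude a shared day or batch. As a block the replicate numbers gave 417 calls, 125 in the fit to 6 libraries, 3 and 1 endothelial genes, and 0 for the difference between treatments (1148 with an unadjusted p under 0.05). Library titles carry another numbering, which pairs KO with WT libraries alike but heterozygous libraries otherwise. If the titles mark preparations, the block in the fit to all 18 libraries joined unlike preparations. Not every library correlated best with its own number: KO replicate 1 did with WT replicate 3 (0.37).

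Of named genes, the sign turned with the acinar covariate for Pdia2 (0.035), Csf3r (-0.24), Slc30a2 (0.79), Cdkn1a (0.058), Gcg (-0.21), Sst (-0.12), Ppy (1.06) and Ctrb1 (0.13). With the endothelial covariate it turned for Fabp4 (0.10), Kcnh6 (-0.00786), Hk1 (0.00933), Smad3 (0.21), Ins1 (-0.050), Ins2 (-0.037), Iapp (-0.027), Gcg (-0.053), Sst (-0.24), Pdx1 (-0.041) and Pecam1 (0.056). Ctrb1 is in the acinar list and Pecam1 in the endothelial list, so their own levels enter the covariate with which their sign turned. When single libraries were left out, the values ran from -0.25 to 0.24 for Cd79a, from -0.71 to 0.20 for Ppy and from -0.25 to 0.028 for Gm19680, with positive values without KO replicate 2 for all 3, without WT replicate 2 for Cd79a and Ppy and without WT replicate 3 for Gm19680. The cause was not tested. At 24616552 reads and above, genes under about 1 CPM rest on few reads, and a missing call there does not show equal levels.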
